A study of Homo sapiens with 6 samples.

Results

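The cytosolic ribosomal protein genes were described by the position of MYT1L peaks at their ends in chromatin of human cells; MYT1L is a transcription factor with zinc fingers that is found in neurons. The genes were taken by symbol from the RefSeq table of GRCh38 as protein-coding genes named RPL or RPS with a number and an optional A, X or L, together with RPLP0, RPLP1, RPLP2 and RPSA. The rule found 81 of 20037 protein-coding genes, 49 of the large and 32 of the small ribosomal subunit. It uses names alone and no measured value, and it leaves out ribosomal proteins with other kinds of names, such as FAU and RACK1. It also takes in RPL3L, RPL10L, RPL39L and RPS27L, paralogues of RPL3, RPL10, RPL39 and RPS27. The 81 genes lay on 21 chromosomes and were short, with a median length of 5015 bp between their ends (772 to 27723 bp) against 24115 bp for all protein-coding genes.

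All 6 libraries came from H1, a wild-type line of human embryonic stem cells, collected at day 30; the series' design text calls the cells cortical interneurons derived from stem cells, whereas the cell type entered for each library is the starting stem cell. In CUT&RUN an antibody brings a nuclease to a chromatin protein in permeabilised cells, and the released DNA fragments are sequenced. Anti-MYT1L antibody was used for 4 libraries, and IgG, which has no chromatin target and gives the background, for 2. Passages ran over a wide range within this single cell line, and nothing in the labels says whether the libraries came from separate cultures, so the spread between libraries may be technical. Peak lists hold no expression values, and marker genes of the cell type could not be checked from them. The peak lists held 27926, 12310, 18966 and 30086 peaks in MYT1L replicates 1 to 4, and 976 and 998 peaks in IgG replicates 1 and 2. Total reads are unknown, but the number of fragments piled up at each summit could be worked back from the deposited values. The genome-wide background was 1.18, 0.421, 1.05 and 0.895 fragments per position in MYT1L replicates 1 to 4, and 0.329 and 0.190 in the IgG libraries. The lowest pileup that made a peak was 5 to 7 fragments in the MYT1L lists and 4 to 5 in the IgG lists. MYT1L replicate 2 was therefore the shallowest MYT1L library and both controls were shallower still, and replicate 4 had the most peaks without the highest background.

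Ribosomal proteins and ribosomal RNA make up the 2 subunits of the ribosome. The small subunit decodes the messenger RNA, and the large subunit joins the amino acids and guides the new chain out through a tunnel. The genes are among the most strongly transcribed of the genome in nearly every cell. Their transcripts commonly start at a cytosine followed by a run of pyrimidines, the terminal oligopyrimidine motif through which growth signals control their translation. Several also hold small nucleolar RNA genes in their introns. MYT1L is known as a factor that represses non-neuronal genes in neurons, and the zinc fingers of its family bind a short core, AAGTT.

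The start of a gene was known for 64 of the 81 genes from RefSeq promoter entries (GRCh38.p14). The 170 bases from 150 before to 20 after the start (counting the start as the first base after) are shown for 8 genes, chosen because the results below turn on them. In each sequence, written 5′ to 3′, capitals mark AAGTT or its reverse complement AACTT, the ETS core CGGAAG or its reverse complement CTTCCG, and a C with 4 further pyrimidines at the start itself. The first 4 genes had peaks in all 4 MYT1L libraries, at or near their own start in RPLP1, RPL27A and RPS13 and beyond the 3′ end in RPL41. They lie at chr15:69452668-69452837 (plus strand), chr11:8682642-8682811 (plus strand), chr11:17077648-17077817 (minus strand) and chr12:56116483-56116652 (plus strand).
RPLP1: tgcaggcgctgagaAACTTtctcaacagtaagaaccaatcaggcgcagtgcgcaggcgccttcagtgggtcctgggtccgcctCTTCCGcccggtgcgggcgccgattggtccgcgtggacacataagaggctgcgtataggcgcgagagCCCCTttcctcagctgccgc
RPL27A: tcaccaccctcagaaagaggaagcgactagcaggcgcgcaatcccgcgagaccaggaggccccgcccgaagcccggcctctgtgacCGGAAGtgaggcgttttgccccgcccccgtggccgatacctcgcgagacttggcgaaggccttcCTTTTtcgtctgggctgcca
RPS13: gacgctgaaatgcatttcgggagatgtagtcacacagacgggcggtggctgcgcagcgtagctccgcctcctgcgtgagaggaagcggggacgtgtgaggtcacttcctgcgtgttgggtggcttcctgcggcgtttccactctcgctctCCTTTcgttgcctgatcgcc
RPL41: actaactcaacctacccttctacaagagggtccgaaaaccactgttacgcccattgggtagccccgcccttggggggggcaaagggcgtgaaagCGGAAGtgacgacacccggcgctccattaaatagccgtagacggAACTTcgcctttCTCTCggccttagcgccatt

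The other 4 are RPL10, which had no peak within 5 kb in any library, its intronless paralogue RPL10L, and the pair RPS27 and RPS27L, of which RPS27L had a peak in IgG as well. They lie at chrX:154397915-154398084 (plus strand), chr14:46651762-46651931 (minus strand), chr1:153990612-153990781 (plus strand) and chr15:63157458-63157627 (minus strand). RPL10, RPL10L and RPS27L lack the C with 4 pyrimidines at the listed start, and in RPS27L the ETS core and AAGTT overlap.
RPL10: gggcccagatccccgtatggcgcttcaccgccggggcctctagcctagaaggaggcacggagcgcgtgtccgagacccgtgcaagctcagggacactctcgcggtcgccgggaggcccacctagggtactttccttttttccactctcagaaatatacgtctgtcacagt
RPL10L: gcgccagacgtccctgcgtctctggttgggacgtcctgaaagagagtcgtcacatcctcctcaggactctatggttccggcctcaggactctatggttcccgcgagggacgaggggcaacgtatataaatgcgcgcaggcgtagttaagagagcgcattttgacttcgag
RPS27: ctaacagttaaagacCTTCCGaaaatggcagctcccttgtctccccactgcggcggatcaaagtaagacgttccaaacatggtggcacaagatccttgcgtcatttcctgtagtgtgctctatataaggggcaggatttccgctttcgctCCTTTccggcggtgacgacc
RPS27L: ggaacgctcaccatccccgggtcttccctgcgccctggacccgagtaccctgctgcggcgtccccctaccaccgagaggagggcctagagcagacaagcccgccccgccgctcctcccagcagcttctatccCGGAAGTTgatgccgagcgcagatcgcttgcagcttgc

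Ribosomal protein genes commonly had a MYT1L peak nearby, and almost none had an IgG peak. A peak within 5 kb of either end was found at 63, 36, 49 and 80 of the 81 genes in MYT1L replicates 1 to 4, or 77.8%, 44.4%, 60.5% and 98.8%. Over all 20037 protein-coding genes the same rule called 61.3%, 36.9%, 51.3% and 73.1%. Each of the 4 MYT1L libraries thus called a larger share of these genes than of all genes, by the widest margin in replicate 4. In each IgG library 1 of 81 genes was called (1.23%), beside 1.03% and 2.22% of all genes, and the 2 genes called by either made up 2.47%, beside 3.07%. The MYT1L shares exceeded the mean IgG share by 69.1 percentage points on average (SD 23.3, n = 4), and the lowest MYT1L value lay far above both IgG values. Such a comparison of 4 with 2 libraries has 15 splits, and its smallest two-sided p is 0.1333, so no p-value is given. The MYT1L libraries had more peaks and more fragments than the controls, and with equal numbers of top peaks per list the excess was 0.926 points.

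**Figure D1:**
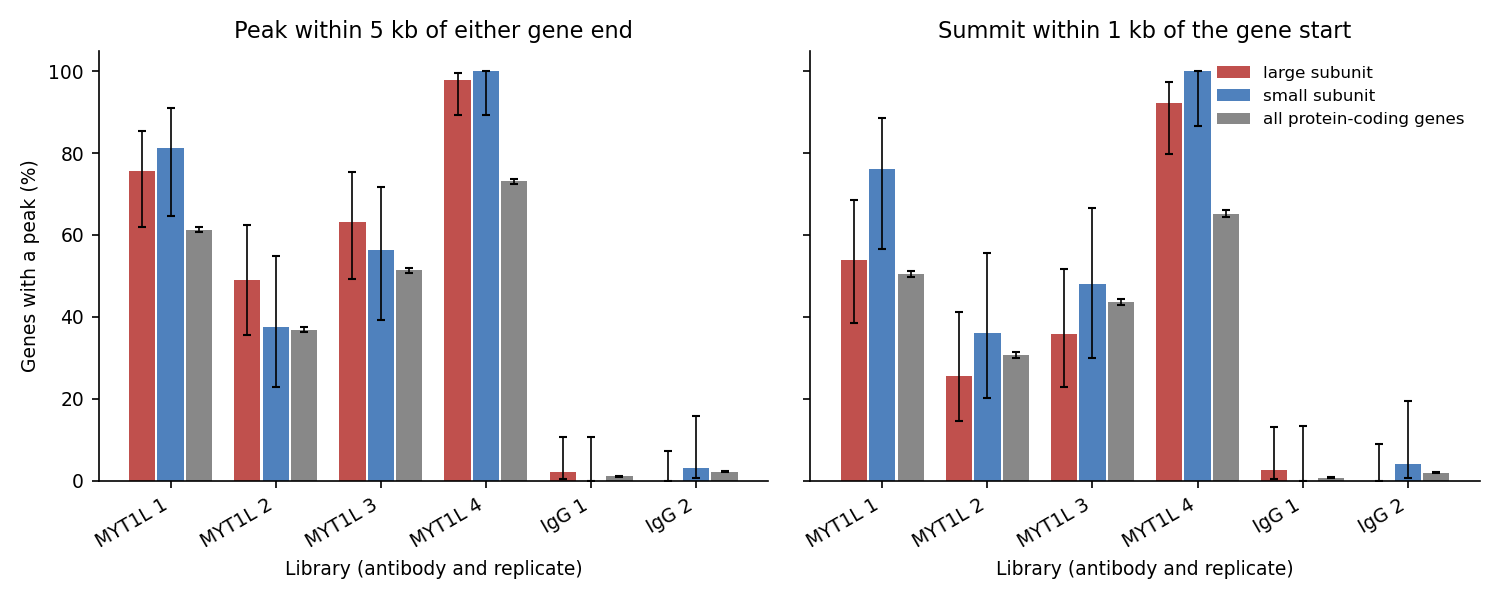
Share of genes with a peak in each library, in percent, for large subunit genes, small subunit genes and all protein-coding genes, within 5 kb of either gene end (left) and with a summit within 1 kb of the gene start (right); error bars are 95% Wilson intervals. In MYT1L replicate 4 all 32 small subunit genes and 48 of 49 large subunit genes had a peak within 5 kb, and each IgG library called 1 gene in all.

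The libraries agreed unevenly on which genes they called. Peaks of all 4 MYT1L libraries lay near 23 genes, of exactly 3 near 28, of exactly 2 near 23 and of only 1 near 6, and RPL10 alone had none. Among all protein-coding genes 27% had all 4 libraries, 23.2% had 3, 16.0% had 2, 13.3% had 1 and 20.6% had none. At least 3 libraries were found at 51 genes (63.0%), beside 50.2%, and the median was 3 libraries both for these genes and for all genes. The share with all 4 libraries (28.4%) was close to that of all genes. The shares with exactly 3 (34.6%) and exactly 2 (28.4%) were larger. The lower end was smaller, with 7.41% at only 1 library, and 20.6% of all genes but 1 of these 81 lacked a peak. All 80 genes with any MYT1L peak had a peak in replicate 4, whereas of the 15910 protein-coding genes with any peak 14650 had it there (92.1%). RPL10L, RPL29, RPL36A, RPL38, RPL39 and RPS27 had their peak in replicate 4 only. From replicates 1 to 3 together, 74 genes (91.4%) were called, beside 71.0% of all genes.

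Regions were formed from MYT1L peaks that overlapped by at least 1 bp, and a region was called reproducible with peaks of at least 3 of the 4 libraries. Such a region, free of any IgG peak, lay within 5 kb of 48 of 81 genes (59.3%, 95% Wilson interval 48.4% to 69.3%, which covers counting error only), beside 44.2% of all genes. With regions that meet an IgG peak kept, it was 50 genes (61.7%), beside 46.5%. The difference of 15.0 percentage points narrowed to 1.77 points when all 4 libraries had to share the region (20 genes, 24.7%, beside 22.9%). It also narrowed to 2.83 points among peaks whose −log10 q reached 5 (25 genes) and to 7.14 with the 12310 top peaks of each MYT1L list (31 genes). It grew with 2 libraries, which gave 70 genes (86.4%) beside 60.7%, and to 23.9 and 24.9 points without replicate 2 or 3, where 2 of the 3 other libraries were asked for. The regions had a median width of 774 bp, beside 855 bp for all such regions at gene ends, and the summits of the libraries within a region spanned a median of 230 bp. Reproducibility was therefore spread over most of the genes, but agreement of all 4 libraries was about as frequent as among all genes.

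Measured at the genes' own starts, the excess was smaller and depended on the library. Of the 64 genes with a known start, a summit lay within 1 kb of it at 40, 19, 26 and 61 genes in MYT1L replicates 1 to 4, or 62.5%, 29.7%, 40.6% and 95.3%. All 15843 genes with a known start gave 50.5%, 30.6%, 43.6% and 65.2%. Replicates 1 and 4 thus called more of these starts than of all starts, and replicates 2 and 3 slightly fewer. The mean difference was 9.55 percentage points (SD 15.2, n = 4), within the spread between libraries, and fell to 2.71 without replicate 4. Each IgG library had a summit at 1 of the 64 starts, beside 0.701% and 1.96% of all starts. In replicate 4 only RPL10, RPL6 and RPL35A had no summit within 1 kb of the listed start. For RPL6 that start lies 7.39 kb inside the gene, and RPL6 had a reproducible region at its outer 5′ end, with the median summit 5 bp from it. It is the single gene of the 64 whose listed start is over 1 kb from the outer end. With outer 5′ ends in place of listed starts, 41, 19, 27 and 62 genes had a summit (64.1%, 29.7%, 42.2% and 96.9%), beside 49.6%, 29.9%, 42.7% and 63.7% of all genes. A reproducible region without an IgG peak had its median summit within 1 kb of the start at 24 of 64 genes (37.5%), beside 39.4% of all genes. With all 4 libraries these were 9 genes (14.1%), beside 20.9%. The share of ribosomal protein starts with a reproducible region was thus close to the background, unlike the share with a region anywhere within 5 kb of an end.

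Where there was a summit at the start, it lay about as close to it as in other genes. The median position of the strongest summit was +40, +29, -48 and +96 bp from the start in MYT1L replicates 1 to 4 (positive downstream), beside +63, +28, -1 and +98 bp over all genes. Summits lay within 250 bp of the start at 27 of 40, 12 of 19, 19 of 26 and 48 of 61 genes (67.5%, 63.2%, 73.1% and 78.7%), beside 68.7%, 70.2%, 74.6% and 70.3% over all genes. Over the whole 5 kb window the strongest summit lay nearer the 5′ than the 3′ end in 79.4% of called genes of known strand (mean of 4 libraries, SD 7.98, n = 4), beside 85.8% over all genes. By library the shares were 85.1%, 71.4%, 73.7% and 87.3%, beside 83.9%, 85.0%, 86.4% and 87.8%, so replicates 2 and 3 were below all genes.

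**Figure D2:**
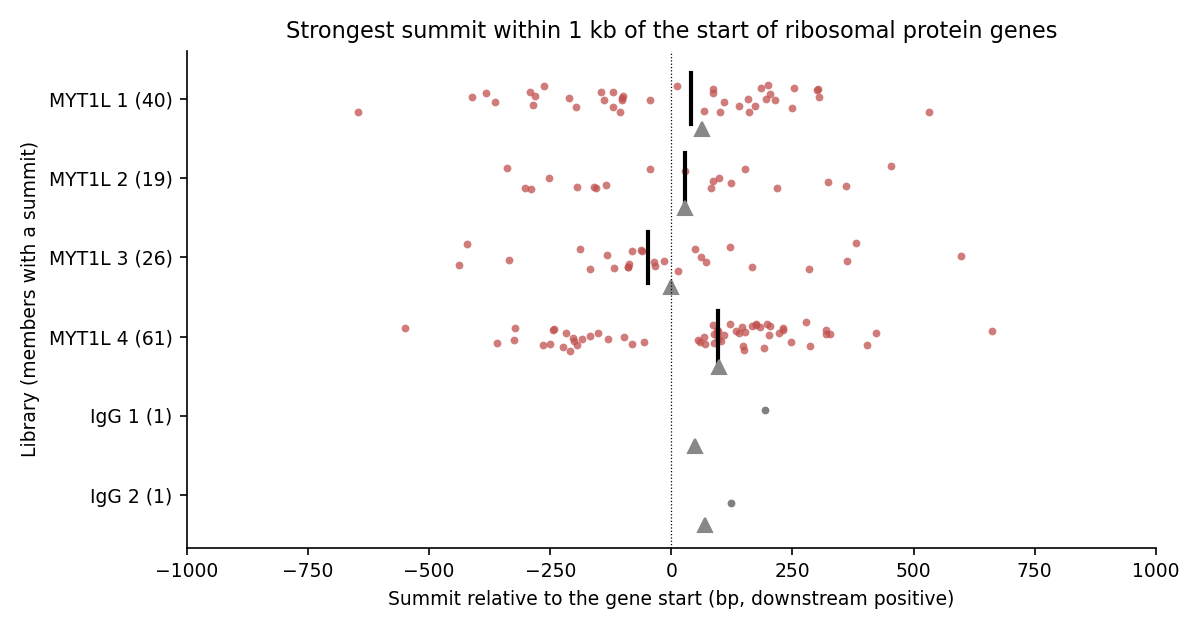
Position of the strongest summit within 1 kb of the start, in bp with downstream positive, for each ribosomal protein gene that had one; rows are libraries with the number of genes in brackets, black bars are medians and grey triangles are medians over all protein-coding genes. Medians lie between -48 and +96 bp in the MYT1L libraries.

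Part of the regions near ribosomal protein genes lay at the ends of neighbouring genes. The 48 genes were joined to 51 distinct regions in 52 pairs, and in 35 pairs, for 33 genes, the nearest protein-coding gene end belonged to the ribosomal protein gene. The other 15 genes had only regions nearer to another gene. Among these 15, RPL35, RPLP2, RPS25 and RPS29 had the median summit of their region at -210, -244, -286 and -276 bp from their own start. Their regions were thus at their own start as well as near a close neighbour. The same shares over all protein-coding genes were not computed. RPL41 encodes a very short basic peptide of the large subunit (chr12:56116633-56117967). Its peaks had summits 1678, 1663, 1652 and 1780 bp downstream of its start in replicates 1 to 4, just past its 3′ end and 45, 30, 19 and 147 bp from an end of ZC3H10. A summit at its own start, 202 bp upstream, was present in replicate 4 alone, at 4.52-fold over background against 10.1-fold at ZC3H10.

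RPL17, which helps to form the tunnel exit (chr18:49488481-49492465), showed the same layout. Its strongest summits lay 161, 60, 19 and 151 bp from an end of C18orf32 and over 5 kb downstream of its start. Weaker summits at its own start were present in replicates 1 and 4, at +108 and +97 bp. RPL4, a protein of the tunnel wall (chr15:66498015-66504855), had its strongest peak 71, 8 and 99 bp from an end of SNAPC5 in replicates 2, 3 and 4. In replicate 1 its strongest summit was 176 bp from ZWILCH instead, at -647 bp from the start of RPL4 itself. A weaker summit near that start was also called in replicate 4, at +94 bp. The region of RPL28 (chr19:55407364-55408348) lay at UBE2S, and a summit within 1 kb of its own start was called in replicate 4 alone. At RPS18 the region (chr6:33277063-33277714) had its median summit 145 bp from an end of B3GALT4 and 5193 bp downstream of the start. The strongest RPS18 peaks of replicates 1 to 3 lay there, at folds of 3.75, 4.86 and 3.54. In replicate 4 the strongest peak was instead at the gene's own start, at -324 bp and 9.63-fold, where the start of VPS52 is 110 bp away. The gene table gives gene ends but no exons, so exons and introns were not assigned. Close neighbours can also share peaks, as RPL3L and RPS2 shared 1. Of the 13 genes with another protein-coding start within 1 kb of their own, 8 had a reproducible region (61.5%), as did 28 of the 51 without (54.9%). Such a region was found at 44.2% of all protein-coding genes, which were not divided in the same way.

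Individual genes differed in how high and how steady the folds of their nearby peaks were. The values given next are folds over background, the authors' value for the peak of highest significance within 5 kb, and a fold depends on the depth of its library. The 10 genes with the highest mean fold among those with peaks in all 4 MYT1L libraries and none in IgG included RPLP1, RPL7, RPL8, RPL27A, RPL4, RPS13, RPS15A, RPL17 and RPL41. RPLP1 (chr15:69452818-69456205) encodes an acidic protein of the stalk, the flexible arm that recruits elongation factors. Its folds were 9.39, 6.95, 4.08 and 16.4 in replicates 1 to 4 (mean 9.20, SD 5.26, n = 4). The pileups were 29, 12, 8 and 62 fragments, and the summits lay 139 to 284 bp downstream of the start. Replicate 4 was by far the highest and replicate 3 the lowest, so RPLP1 was the least steady of the 10.

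RPL7, a large subunit protein (chr8:73290242-73294466), had folds of 7.72, 9.64, 7.85 and 11.6, with 27, 20, 23 and 81 fragments at the summit. Its mean was also 9.20, but with an SD of 1.82 (n = 4), and its 4 libraries lay closer together than those of RPLP1. RPL8 encodes a protein near the site of peptide bond formation (chr8:144789769-144792390), and its folds were 7.41, 8.06, 5.44 and 8.96. Its strongest region had its median summit 147 bp from an end of ZNF34, and a second region, at 4.64-fold (SD 0.481, n = 4), had its median summit 5 bp from an end of RPL8 itself. RPL27A (chr11:8682792-8689872) also had 2 regions: a region around its start in all 4 libraries and a region at its 3′ side in replicates 1, 3 and 4. RPL14 likewise had 2 regions with peaks of all 4 libraries, with median summits at +86 and -4132 bp from its start.

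In the small subunit, RPS13 (chr11:17074388-17077667) had folds of 6.59, 5.50, 6.56 and 9.17. Its summits lay 106, 160 and 133 bp upstream of the start in replicates 1 to 3 and 60 bp downstream in replicate 4. RPS15A (chr16:18781295-18790334) had folds of 4.52, 6.43, 5.79 and 11.1, and the summits of its 4 libraries lay within 10 bp of each other. RPSA, the small subunit protein also known as the laminin receptor, had 4.16, 5.77, 6.04 and 8.15, with summits between 99 bp upstream and 219 bp downstream of the start. In each of these 3 genes replicate 4 was the highest, and replicates 1 to 3 lay between 4.16 and 6.59.

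Support also varied among genes whose products work side by side. Of the 4 stalk genes, RPLP1 and RPLP2 had a reproducible region without an IgG peak, and RPLP0 and RPL12, which form the stalk base, did not. RPLP2 had folds of 5.95, 7.67 and 8.19 in replicates 1, 2 and 4. RPLP0 was called in replicates 2 and 4, at 5.69 and 9.11, and RPL12 in replicates 1 and 4, at 4.44 and 6.57. The RPLP0 summits were at different places, 6443 bp downstream of the start in replicate 2 and 109 bp downstream in replicate 4. RPL5 and RPL11 form with 5S ribosomal RNA the particle that binds the p53 regulator MDM2 when ribosome assembly fails. RPL5 had a reproducible region, with folds of 8.24, 5.38 and 9.10 in replicates 1, 2 and 4. RPL11 had peaks in all 4 libraries, at 4.69, 4.86, 4.77 and 9.75, but not in 1 place. Its summits lay 160 and 148 bp downstream of the start in replicates 1 and 4, and 2708 and 3036 bp upstream in replicates 2 and 3. Of the 7 genes around the tunnel exit, 5 had a reproducible region (71.4%), beside 44.2% of all genes and 59.3% of all 81. RPL23A and RPL39 were the exceptions. The regions of RPL17, RPL19 and RPL35 were nearest to ends of C18orf32, CACNB1 and ARPC5L. Their median summits lay at +5337, -2693 and -210 bp from the start of the ribosomal protein gene.

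Among the highest folds outside the 4-library genes were RPL21 and RPS25, which are named here after their values were seen. RPL21 had folds of 6.87, 12.2 and 12.3 in replicates 1, 2 and 4, at summits 101, 45 and 131 bp upstream of its start, and no peak in replicate 3. RPS25 had 6.34, 7.98 and 12.6 in replicates 1, 3 and 4, at a region whose nearest gene end was that of TRAPPC4. RPL10, a late-joining large subunit protein near the catalytic centre (chrX:154398065-154402339), had its nearest MYT1L peaks 6.84, 9.14, 6.96 and 7.98 kb away in replicates 1 to 4. The gene nearest to those peaks was TAFAZZIN in replicates 1 to 3 and EMD in replicate 4.

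The 2 genes with an IgG peak were RPL15 and RPS27L. RPL15, a large subunit gene mutated in some families with Diamond-Blackfan anaemia, had MYT1L folds of 7.95, 6.80, 10.8 and 12.2 from 24, 10, 30 and 57 fragments. Its peak in IgG replicate 1 had a fold of 6.77 from 8 fragments, with the summit 193 bp downstream of the start against 249 to 362 bp in the MYT1L libraries. RPL15 would otherwise have ranked above RPLP1 by mean fold, at 9.46 (SD 2.51, n = 4). RPS27L, a paralogue that p53 can induce, had MYT1L folds of 5.55, 5.36 and 10.9 in replicates 1, 3 and 4 and a fold of 5.55 in IgG replicate 2 from 6 fragments. A fold of the same size was thus reached in IgG from fewer fragments, over a lower background.

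None of RPL3L, RPL10L, RPL39L and RPS27L had a reproducible region without an IgG peak, nor did their 4 counterparts. RPL3L, the form of RPL3 in heart and skeletal muscle, had folds of 4.07, 4.45 and 8.51 in replicates 1, 3 and 4, at ends of MSRB1 and NDUFB10. RPL3 itself had 5.14 and 4.17 in replicates 3 and 4. RPL10L, a paralogue of the testis, had a single peak, 4.22-fold from 7 fragments in replicate 4. RPL39L, also known from the testis, had 4.97 and 5.79 in replicates 1 and 4, and RPL39 had 9.72 in replicate 4 only. RPS27 had 4.16 in replicate 4 only. Without the 4 paralogues, 48 of 77 genes (62.3%) had a reproducible region.

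**Figure D3:**
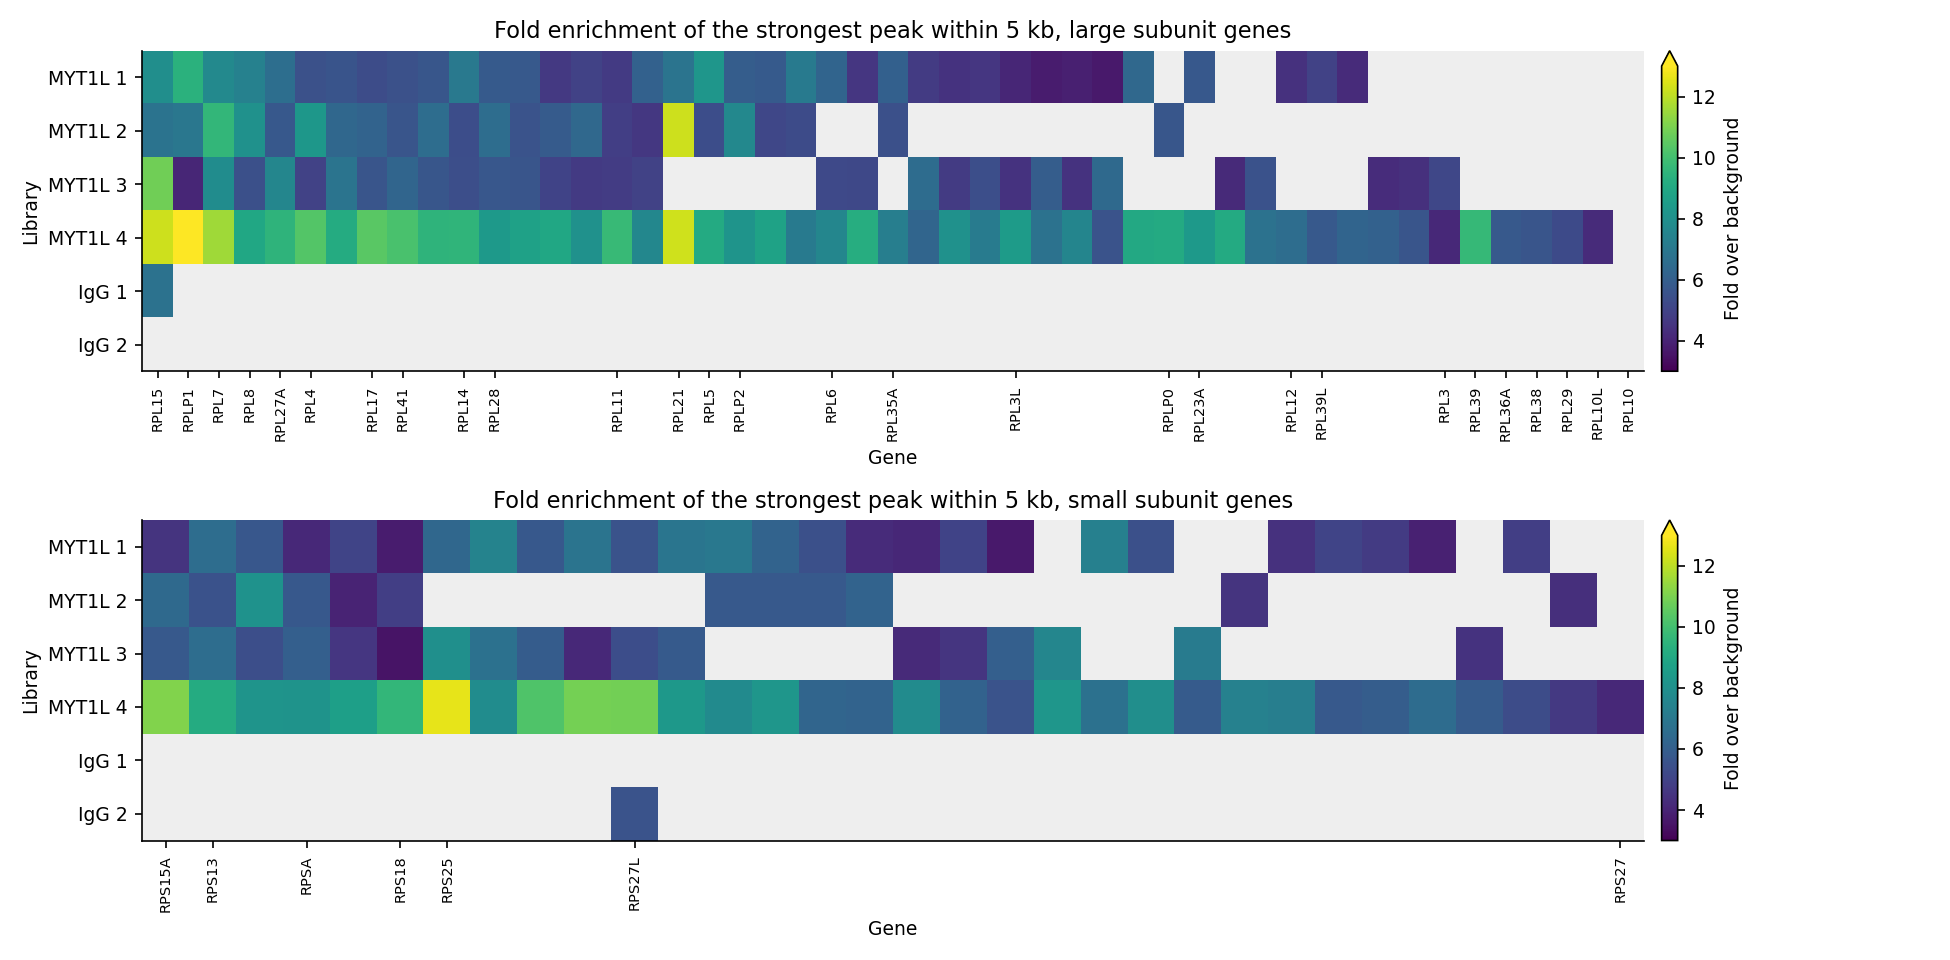
Fold over background (colour, from 3 upward) of the most significant peak within 5 kb of each gene, for large subunit genes (top) and small subunit genes (bottom), with libraries in rows and genes ordered by the number of MYT1L libraries with a peak and then by mean fold; grey means no peak, and the genes described in the text are labelled. Replicate 4 fills its row except for RPL10, and the IgG rows hold only RPL15 and RPS27L.

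How large and small subunit genes compared depended on the window. Within 5 kb of either end they differed by less than the spread between libraries, whereas closer to the start the small subunit share was the higher in each MYT1L library. Within 5 kb the large subunit had 37, 24, 31 and 48 of 49 genes called in MYT1L replicates 1 to 4 (75.5%, 49.0%, 63.3% and 98.0%). The small subunit had 26, 12, 18 and 32 of 32 (81.3%, 37.5%, 56.3% and 100%). The large subunit share was lower in replicates 1 and 4 and higher in replicates 2 and 3, and the mean difference was 2.68 percentage points (SD 7.95, n = 4). The sign turned to -0.255 without replicate 2. With peaks within 1 kb of an end the difference was -7.25 points (SD 6.55, n = 4). At the start, 21, 10, 14 and 36 of 39 large subunit genes and 19, 9, 12 and 25 of 25 small subunit genes had a summit within 1 kb. Here the small subunit share was higher in all 4 libraries, by 13.1 percentage points on average (SD 6.32, n = 4; 7.69 to 22.2), a mean about as large as 2 SDs. The libraries read the same genes, so they are not independent evidence about the subunits, and no test was made. A reproducible region without an IgG peak lay within 5 kb of 30 of 49 large (61.2%, interval 47.2% to 73.6%) and 18 of 32 small subunit genes (56.3%, 39.3% to 71.8%). At the start it was 12 of 39 and 12 of 25. IgG replicate 1 called 1 of 49 large and 0 of 32 small subunit genes, and IgG replicate 2 called 0 of 49 and 1 of 32, where a count of 0 has a Wilson upper bound of 10.7% and 7.27%.

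The peaks near ribosomal protein genes were close in strength to other gene-end peaks of their libraries, with the widest gap in replicate 4. There were 77, 40, 54 and 107 such peaks in MYT1L replicates 1 to 4. Their median fold was 5.34, 5.77, 5.41 and 7.35, beside 5.10, 5.68, 5.39 and 6.73 for all peaks within 5 kb of protein-coding gene ends. The median excess in fold was 0.241 (mean of 4 libraries, SD 0.267, n = 4), no larger than the spread, and turned to -0.0769 among peaks with a −log10 q of at least 5. Median pileups were 15, 10, 13 and 25 fragments, beside 15, 9, 14 and 23. The median −log10 q was 5.60, 4.79, 5.54 and 14.5, beside 5.70, 4.79, 5.62 and 12.0. The median pileup thus differed from that of all gene-end peaks by at most 1 fragment in replicates 1 to 3 and by 2 in replicate 4.

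**Figure D4:**
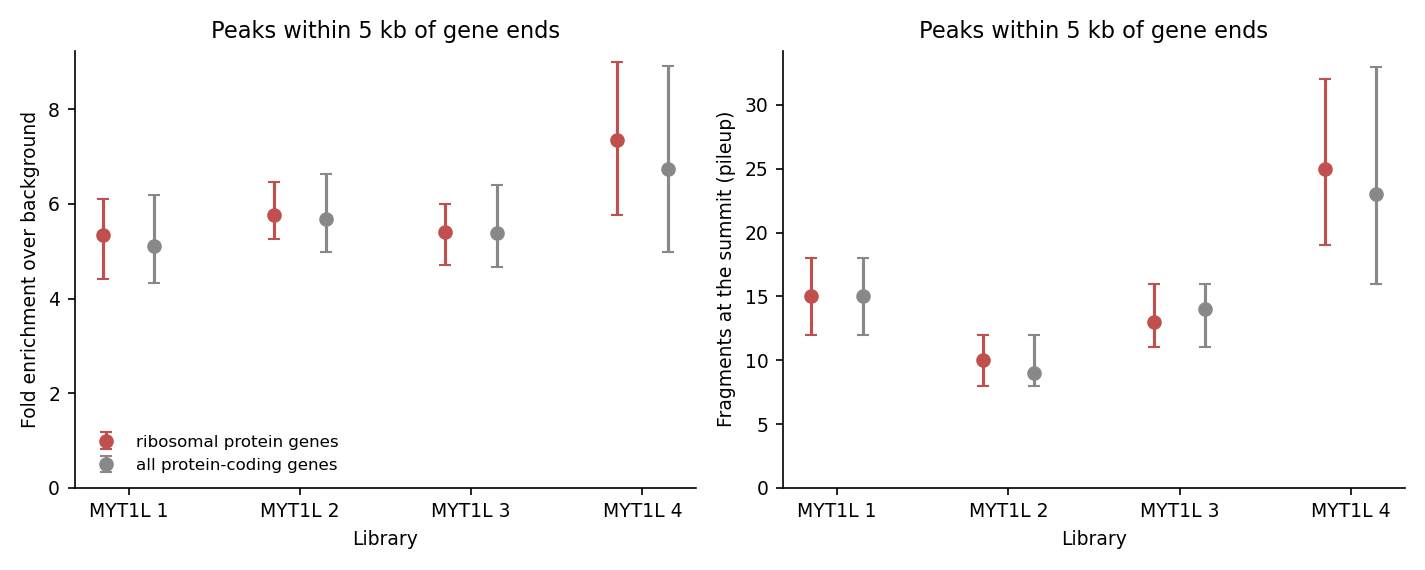
Fold over background (left) and fragments at the summit (right) of peaks within 5 kb of ribosomal protein genes and of all protein-coding genes in each MYT1L library; points are medians and bars run from the lower to the upper quartile. The quartile ranges overlap in every library, and the largest gap in median fold is 7.35 against 6.73 in replicate 4.

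Other genes of ribosome production and translation had reproducible regions in shares of 42.9% to 66.7% by list. A reproducible region without an IgG peak lay near 10 of 15 translation factors and related genes with terminal oligopyrimidine transcripts, beside 44.2% of all genes. Among them, PABPC1, which binds the poly(A) tail, had highest folds of 7.29, 7.92, 7.07 and 8.94 in replicates 1 to 4. EEF1A1, which brings aminoacyl-tRNA to the ribosome, was called in replicates 1 and 4 only. Of 24 ribosome assembly factors 14 had a region, including FBL, the methyltransferase of small nucleolar ribonucleoproteins, with highest folds of 4.49, 5.50, 6.65 and 11.3. NOP10 of the pseudouridylation particle had 11.1, 7.69, 5.83 and 11.7. Of 11 genes of RNA polymerase I and its factors 7 had a region, among them POLR1B and UBTF. Of 7 ribosomal proteins and relatives outside the naming rule, FAU, RPL7L1 and RPL22L1 had a region. RPL36AL had an IgG peak. Of the 18 ribosomal protein genes linked to Diamond-Blackfan anaemia, a failure of red cell production, 11 had a region (61.1%), close to the 59.3% of all 81 genes.

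The promoters held the pyrimidine start and the ETS core in larger shares than all promoters, and the MYT1-family core in a share nearer to theirs. In the 300 bases from 250 before to 50 after the start, searched on both strands, AAGTT or AACTT occurred in 24 of 64 genes (37.5%), beside 29.3% of all 15843 promoters. The longer AAAGTT occurred in 7 (10.9%, beside 10.6%). The ETS core CGGAAG, which GA-binding protein recognises, occurred in 40 (62.5%, beside 25.6%), and ATGGCGG, the core of YY1 sites, in 12 (18.8%, beside 7.63%). GGGCGG, the core of SP sites, occurred in 36 (56.3%, beside 58.5%) and TATAAA in 6 (9.38%, beside 9.63%). A C with 4 further pyrimidines at the listed start, read on the gene's strand, was present in 42 (65.6%, beside 4.60%). Median GC content was 59.3%, beside 62.7%. Among the 24 genes with a reproducible region at the start, 10 held AAGTT or AACTT and 12 the ETS core. Among the 40 without, 14 and 28 did. The printed sequences show the same mix: of RPLP1, RPL27A, RPS13 and RPL41, which all had 4-library peaks, RPLP1 and RPL41 hold AACTT in the stretch shown and the other pair does not. A match describes these letters only and is not a measured binding site.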

How the data were processed

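Each library had 1 deposited peak list without a header. Peaks were called with MACS2 on hg38, per the submitters' processing notes; the aligner, threshold, control and any pooling are not given in the sources used here. Every deposited peak has a fold over background (a ratio), −log10 p, −log10 q and a score, all the authors' values, used within a list only. In the MYT1L lists the sample number within each peak name is 1 above that of the title, and the titles were followed.

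Genes came from RefSeq GRCh38.p14, which holds the same chromosomes. Peaks within 5 kb of either gene end were assigned to genes (Python 3.11.15, pandas 2.3.3), with counts checked against bedtools 2.31.1 (0 genes differed). Starts came from RefSeq promoter entries, present for 64 of 81 genes. Pileup, in fragments at the summit, was recovered as the whole number that gives both fold and −log10 p in MACS2's formulas within 0.0002. It was found for 99.8% to 100% of peaks, and for 100% of 3865 simulated peaks. Shares have 95% Wilson intervals.

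Named genes were the 10 with the highest mean fold among genes with peaks in all 4 MYT1L libraries and none in IgG, those with an IgG peak or no peak, the paralogues and counterparts, the stalk and 5S genes and RPSA; some genes are counted but not reported here by name. Members and lists were chosen with earlier results of these data known, so no test over them was made. Alternatives covered the window, summits, significance, library support, equal list sizes, the paralogues, the 5′ end, the outer 5′ gene end as start (added after seeing the data) and leaving out each library.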

Additional observations from a re-analysis of the deposited data

Results flagged for a closer look

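Of 24 results with a value in each of the 4 MYT1L libraries, 4 had a library that stood apart from the other 3 by Dixon's criterion. In every case it was replicate 4 on the high side. Chance alone flags about 1 in 20 independent groups chosen without regard to their values. These results share the same 4 libraries, and many are folds of genes picked for a high mean fold, so that rate does not apply to them. The median −log10 q of peaks near ribosomal protein genes was 14.5 in replicate 4, against 4.79 to 5.60 in the others, and all gene-end peaks stood apart in the same way (gap over range 0.874). The fold at RPL17 was 10.4 in replicate 4, against 5.34 to 6.18. The fold at RPL41 was 10.1, against 5.47 to 6.26, and at RPL11 it was 9.75, against 4.69 to 4.86. For RPL17 and RPL41 the peaks in question are those at C18orf32 and ZC3H10. For RPL11 the values come from different places. Its summits lay at +160 and +148 bp from the start in replicates 1 and 4, and at -2708 and -3036 bp in replicates 2 and 3.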

How the results depend on the processing

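With the 976 most significant peaks of each of the 6 libraries, the excess of MYT1L over IgG was 0.926 percentage points in place of 69.1, and leaving out each library gave 59.7 to 77.8. Replicate numbers 1 and 2 occur in both groups, and with the replicate number as a block the excess was 59.9; the labels do not say that a number pairs libraries. The count of 48 genes with a reproducible region became 25 with a −log10 q of at least 5, 29 at the 5′ end only (of 64 genes), 20 with all 4 libraries and 31 with equal list sizes, and 47 to 67 without each library in turn. Its excess over all genes (15.0 points) became 2.83 with that −log10 q, 2.27 at the 5′ end, 7.14 with equal list sizes, 25.7 with 2 libraries and 1.77 with 4, and 13.2 to 24.9 without each library (2 of 3 libraries being asked for where a MYT1L library was left out). The large minus small subunit difference reversed within 1 kb (-7.25), at the 5′ end only (-6.03) and without replicate 2 (-0.255, the lowest of -0.255 to 5.48). The excess in median fold (0.241) was 0.578 on the −log10 q scale and reversed to -0.0769 under that cutoff of 5; without each library it was 0.116 to 0.315. The share nearer the 5′ end stayed between 75.5% and 84.5% over 6 alternatives. For summits at the start, alternatives chosen after seeing the data gave 2.71 to 13.7 points. The cause of these shifts was not tested, and the stricter settings also leave fewer peaks or genes. Depth limits the absence of a peak in replicate 2 and in IgG.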

Other observations

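Ribosomal protein genes that hold a small nucleolar RNA gene between their ends had a reproducible region without an IgG peak in 22 of 29 cases (75.9%), and those without such a gene in 26 of 52 (50%). Small nucleolar RNAs guide the chemical modification of ribosomal RNA and are released from introns of their host genes. Over all 526 protein-coding genes that hold one, 314 had a region (59.7%), beside 44.2% of all protein-coding genes. Within 5 kb the hosts among the ribosomal protein genes were called in 25, 15, 18 and 28 of 29 cases in MYT1L replicates 1 to 4 (86.2%, 51.7%, 62.1% and 96.6%) and in no IgG library. The others were called in 38, 21, 31 and 52 of 52 (73.1%, 40.4%, 59.6% and 100%), and all 526 host genes in 74.5%, 45.6%, 64.1% and 85.4%. The share of hosts was thus above that of the other ribosomal protein genes in replicates 1 and 2, close to it in replicate 3 and below it in replicate 4. The division was made by position in the gene table, without a test.

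The 4 ribosomal protein genes on the X chromosome, RPL10, RPL36A, RPL39 and RPS4X, were called in 1, 0, 0 and 3 cases in MYT1L replicates 1 to 4, and none had a reproducible region. The 77 autosomal genes were called in 62, 36, 49 and 77 cases. All X-linked protein-coding genes were called less often than autosomal genes in each of these libraries, at 35.6%, 18.3%, 22.1% and 57.4% against 62.6%, 37.8%, 52.8% and 74.0%. Among the 976 most significant peaks of each list, ribosomal protein genes had 0, 2, 1 and 4 calls in the MYT1L libraries and 1 and 1 in IgG. The MYT1L shares were 0%, 2.47%, 1.23% and 4.94%, beside 0.574%, 1.65%, 0.604% and 3.41% of all genes. The IgG shares were 1.23% and 1.23%, beside 1.03% and 2.16%. Among the 12310 most significant, ribosomal protein genes had 39, 36, 36 and 63 calls (48.1%, 44.4%, 44.4% and 77.8%), beside 38.1%, 36.9%, 39.9% and 54.1% of all genes.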
